A study of Ovis aries with 4 samples.

Results

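The genes described here carry names of the USP, OTUD, UBE2, UBE3, UBE4, RNF, TRIM, FBXO, FBXL, FBXW, CUL, KLHL and ASB families, contain a digit in the name and had at least 1 m6A peak in an ovary of either age. There were 102 such genes among 5261 genes with a peak, 68 in the aged list and 72 in the young list. The rule uses the gene name and the presence of a peak. N6-methyladenosine (m6A) was mapped in ovarian tissue of Cele black sheep aged 5 to 6 years (aged) and 1 to 2 years (young) by sequencing RNA bound by an anti-m6A antibody beside an input library. The series has 4 samples, with antibody and input libraries for each age, and its 2 peak lists, 1 for aged and 1 for young ovaries, were used. Each peak has a fold enrichment of immunoprecipitate over input and raw and adjusted p-values that are the authors' own. The folds are used here to describe and rank peaks within a list, and 1 alternative applies the same fold cut to both lists. With 1 list per age there is no replicate check and no test between ages, intervals cover counting error only, and a gene in 1 list only is not shown to have gained or lost methylation. Depth and transcript levels are unknown here. Whether an ovary sample pooled several animals is not stated.

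Ubiquitin is attached to proteins by an activating enzyme, a conjugating enzyme (the UBE2 family) and a ligase that picks the substrate, and it is removed by deubiquitinases such as USP and OTUD proteins. Most RNF and TRIM proteins are ligases built around a RING domain, while CUL proteins are scaffolds of multisubunit ligases whose substrate receptors include F-box proteins (FBXO, FBXL and FBXW, on CUL1), KLHL proteins (on CUL3) and ASB proteins (on CUL5). In the ovary, ubiquitin-dependent degradation is known for its part in the oocyte's meiotic divisions and in turnover of signalling proteins of follicle cells. The m6A mark on messenger RNA is read by proteins that act on splicing, translation and decay.

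The deposited annotation was set beside the family names. A Gene Ontology term, pathway or description that mentions ubiquitin was attached to 97 of the 102 genes, against 8.78% of all genes with a peak, and the 5 without one were FBXO22, KLHL5, KLHL32, KLHL33 and TRIM16. The names do not mark ligases and deubiquitinases alone. The 15 UBE2 genes encode conjugating enzymes or relatives of them, among them UBE2V1, a variant without catalytic activity that pairs with UBE2N. TRIM14, TRIM16 and TRIM44 encode proteins without a RING domain. In the RefSeq gene table of sheep assembly ARS-UI_Ramb_v3.0 the naming rule covers 353 protein-coding genes, of which 101 had a peak (28.6%, 95% Wilson interval 24.1 to 33.5), against 24.5% of all protein-coding genes. FBXO17 completes the 102 and is not in that table under this name. Among the larger families, the share with a peak was 44.1% of 34 UBE2 genes, 36.7% of 49 USP genes, 29.6% of 81 RNF genes, 20.8% of 53 TRIM genes and 18.9% of 37 KLHL genes, and a gene without a peak may be unexpressed. Of 40 marker genes of ovarian cell types, 23 had a peak, including FSHR of granulosa cells and NOBOX of oocytes, while AMH, FOXL2 and CYP19A1 of granulosa cells and GDF9 and BMP15 of oocytes had none.

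Of the 102 genes, 30 (29.4%, 95% interval 21.4 to 38.9) had a peak in the aged list only, 34 (33.3%, 24.9 to 42.9) in the young list only and 38 (37.3%, 28.5 to 46.9) in both. The background over all 5261 genes was 26.9% in the aged-only class, 41.3% in the young-only class and 31.8% in the shared class. Each of these shares lies inside the interval of the ubiquitin genes, so the balance of the whole group is close to that of all genes. UBE2 genes were mostly aged-only, with 9 of 15 (60.0%, 35.7 to 80.2), whereas 2 were young-only (13.3%, 3.74 to 37.9). Both of these intervals leave out the share of all genes, but they are not adjusted for the 13 families looked at, and the difference between families was not tested. With peaks that cross no intron, 11 UBE2 genes were left, 6 in the aged list alone, 4 in the young list alone and 1 in both, so the low young-only share did not hold there. Of all genes, 26.5% were aged-only and 44.6% young-only with such peaks. RNF genes were aged-only in 3 of 24 cases (12.5%, 4.34 to 31.0) and young-only in 11. USP and OTUD deubiquitinase genes were aged-only in 2 of 20 cases (10.0%, 2.79 to 30.1), young-only in 8 and shared in 10. USP genes without OTUD were shared in 10 of 18 cases (55.6%, 33.7 to 75.4), against 31.8% of all genes. That interval also leaves out the share of all genes, and it too is not adjusted for the 13 families. Scaffolds and adaptors of cullin ligases were aged-only in 12 of 29 cases (41.4%, 25.5 to 59.3), young-only in 9 and shared in 8.

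**Figure D1:**
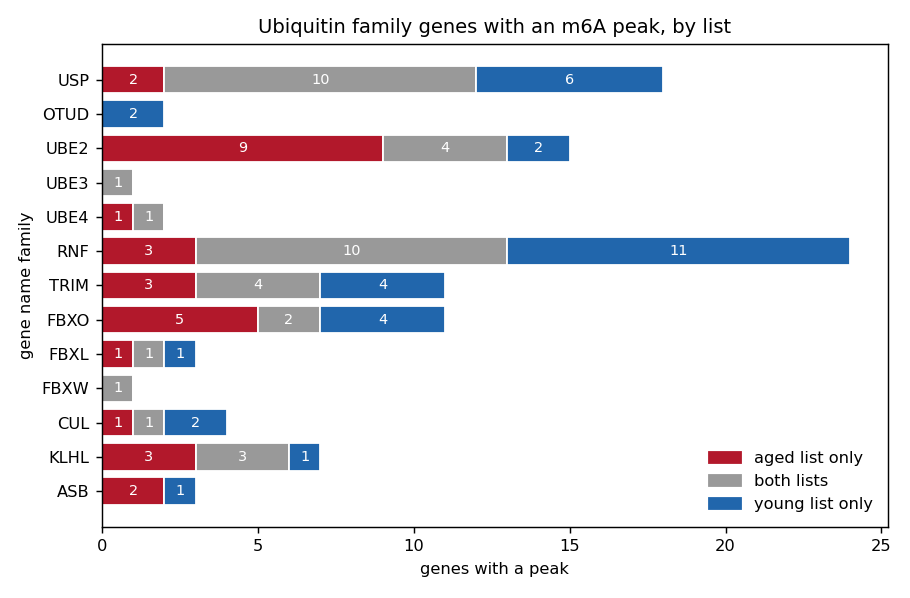
Number of genes with a peak (horizontal axis) in each gene name family (rows), split into genes of the aged list only, of both lists and of the young list only. UBE2 is the family with the most aged-only genes (9 of 15), and RNF the one with the most young-only genes (11 of 24).

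The balance of the UBE2 family depended on how strong a peak had to be. With folds of at least 2.00, the median over both lists, 7 UBE2 genes kept a peak, of which 2 were aged-only, 2 young-only and 3 shared. At that fold 15 USP genes were left, 2 in the aged list alone, 11 in the young list alone and 2 in both. The shares of all genes at that fold were 26.1% aged-only, 54.7% young-only and 19.1% shared. This cut lay above the median of all aged peaks (1.88) and below that of all young peaks (2.05), so it was stricter for the aged list. UBE2B and UBE2V1 were the 2 aged-only UBE2 genes left, so most aged-only UBE2 peaks had low folds.

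Among conjugating enzymes, the aged-only gene with the highest fold was UBE2B (2.40), followed by UBE2V1 (2.36). UBE2B and UBE2A (1.50) encode the paired mammalian forms of yeast RAD6, which act with RAD18 in tolerance of DNA damage. Both had an aged peak and no young peak. UBE2QL1 (1.95), UBE2L3 (1.75), UBE2E3 (1.66), UBE2J2 (1.61) and UBE2Q2 (1.50) were also aged-only. UBE2L3 serves parkin and the linear-chain ligase, and UBE2J2 sits in the membrane of the endoplasmic reticulum. The UBE2L3 peak had an adjusted p of 0.0562, and that of UBE2B had 0.0155. Young-only genes were UBE2O (2.00), which combines conjugating and ligase activity, and UBE2U (1.60).

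Shared UBE2 genes were UBE2D2, UBE2D3 and UBE2D4 of the UBE2D group, whose conjugating enzymes work with the broadest range of RING ligases. UBE2R2 (2.14 aged, 3.00 young), a CDC34 relative that serves cullin ligases, was shared as well. UBE2D4 had folds of 2.92 in the aged and 4.09 in the young list, which placed it at rank 249 of 3656 aged peaks and rank 82 of 4378 young peaks. The UBE2D4 peak lay on chromosome 19 at 378987 to 379220 (aged) and 378938 to 379220 (young), in the coordinates of the deposited files, whose build is not given in the sources used here. UBE2D3 had 1 aged peak (3.04) and 3 young peaks (2.67, 2.20 and 2.17). Of the young peaks of UBE2D3, the one with a fold of 2.67 was labelled 5' UTR and lay 50488 bases before the next, and its adjusted p was 0.0437. UBE2D2 had a fold of 1.62 in the aged and 2.18 in the young list. The UBE2D genes are close paralogs, as are UBE2A and UBE2B, and how the authors treated reads that fit several copies is not given in the sources used here, so these values are uncertain.

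Of the deubiquitinase genes, USP34 had an aged peak of 1.88 and a young peak of 5.75, the highest young fold of the 102 genes, at rank 11 of 4378 young peaks. USP34 stabilises axin in WNT signalling. Its aged peak was labelled exon and its young peak stop codon, and they did not overlap but lay 449 bases apart. The aged peaks of USP genes had a median at percentile 36.8 of all aged folds, and the young USP peaks one at percentile 78.0 of all young folds. FBXO peaks, only 7 in each list, were placed the other way, with medians at percentile 71.7 of aged and 29.5 of young folds. No difference among the 13 families was tested. The medians themselves were 1.76 for 17 aged USP peaks and 2.60 for 19 young USP peaks, against 1.88 and 2.05 for all peaks of those lists.

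Young-only USP genes were led by USP32 (4.40), the VHL-binding USP20 (3.67), the histone deubiquitinase gene USP3 (2.88 and 1.65, from 2 peaks), the MYC-stabilising USP28 (2.80) and USP13 (2.67). USP15 (2.19), whose product acts on receptors and SMAD proteins of TGF-beta signalling, completes the 6. USP30 and USP1 were the aged-only ones. USP30, a deubiquitinase of the mitochondrial outer membrane that opposes mitophagy, had 3 aged peaks (1.50, 1.52 and 1.75), and USP1 (1.81), which acts on PCNA and FANCD2, had 1, labelled exon. Both OTUD genes were young-only with 2 peaks each, OTUD7B with folds of 3.40 and 1.87 and OTUD5 with 2.58 and 2.28.

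USP genes with peaks in both lists included large and well studied enzymes. USP9X, an X-linked enzyme that acts on SMAD4, had aged peaks of 2.28 and 1.65 and a young peak of 4.17 (rank 77 of 4378). USP47, which acts on DNA polymerase beta, had 2.20 in the aged and 4.29 in the young list, and the nucleolar USP36 had 1.76 in the aged list and 3.09 and 1.83 in the young list. USP48 (2.75 aged, 1.96 young), the USP15 paralog USP4 (1.80 and 1.67 aged, 1.70 young), USP40 (1.63 and 1.53 aged, 2.60 young), USP24 (1.50 aged, 2.50 and 2.37 young), USP31 (1.87 aged, 2.08 young) and the proteasome-bound USP14 (2.00 aged, 1.62 young) complete the shared group. An overlapping pair of an aged and a young peak was found for USP9X, USP47, USP36, USP48, USP4 and USP31, but not for USP14, USP24, USP34 and USP40.

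**Figure D2:**
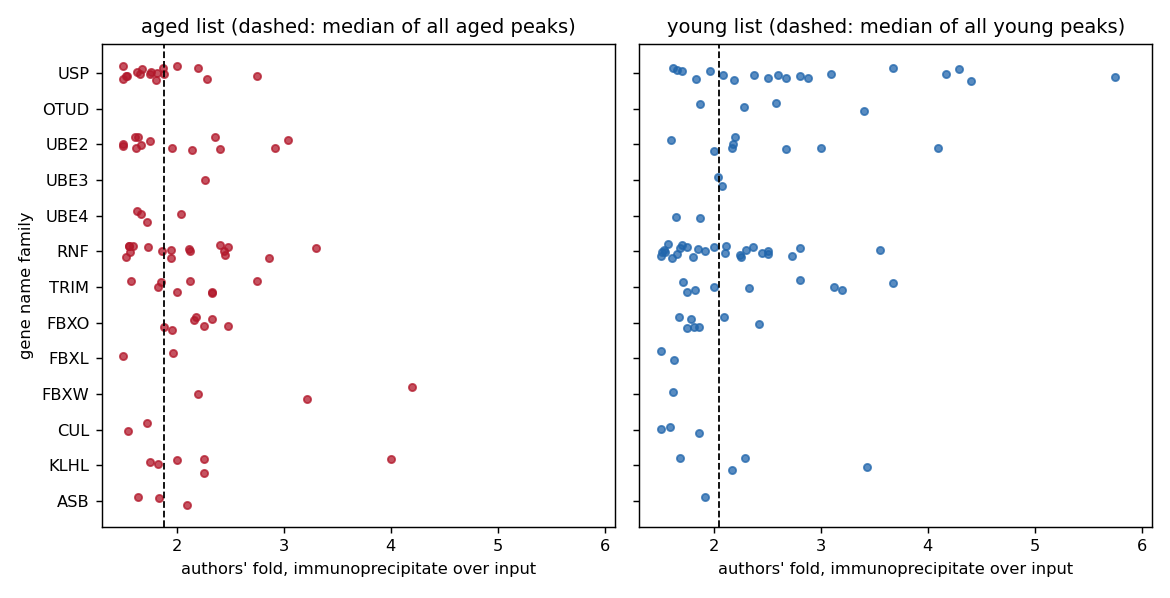
Authors' fold of immunoprecipitate over input (horizontal axis) for each peak of the ubiquitin genes, by family (rows), in the aged list (left) and the young list (right). Points are peaks, spread vertically for legibility, and dashed lines are the medians of all peaks of the list (1.88 aged, 2.05 young). The highest aged fold is 4.20 in FBXW7 and the highest young fold 5.75 in USP34.

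The 3 aged-only RNF ligase genes of 24 (12.5%, with an interval that includes the 26.9% of all genes) became 5 of 23 with lists of equal length and 7 of 18 with exon and UTR labels only. Under those settings 32.8% and 41.3% of all genes were aged-only. As deposited, the aged-only RNF genes were RNF122 (2.44), RNF43 (1.59), which removes frizzled receptors from the cell surface, and RNF185 (1.55), which acts in degradation at the endoplasmic reticulum. The highest folds of young-only RNF genes lay between 1.51 and 2.30, with RNF180 (2.30), RNFT2 (2.25), RNF150 (2.24 and 1.50), RNF141 (2.10), RNF10 (1.85), RNF145 (1.80), RNF217 (1.70) and RNF170 (1.65) leading. RNF20 (1.57), which ubiquitinates histones at transcribed genes, RNF14 (1.54) and RNF112 (1.51) were also young-only. RNF145 and RNF170 reside in the endoplasmic reticulum, the first acting on HMG-CoA reductase and the second on inositol trisphosphate receptors.

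Shared RNF genes numbered 10. RNF6, a ligase that acts on the androgen receptor, had identical peak boundaries at both ages on chromosome 10 (33462503 to 33462653), with folds of 3.30 in the aged list (rank 137) and 2.50 in the young list. RNF121 had an identical peak at both ages (2.86 aged, 3.55 young) and a further aged peak of 2.40. RNF139, a sterol-responsive ligase of the endoplasmic reticulum, had an aged peak of 1.94 and young peaks of 2.45 and 1.68. RNF7, the RING partner of CUL5, had 2.48 in the aged and 2.73 in the young list. RNF169 (2.11 aged, 2.50 young), which is recruited to DNA double-strand breaks, and RNF25 (1.73 aged, 1.92 young) had overlapping peaks. RNF214 carried the most peaks of the 102 genes, with aged folds of 1.94, 2.45 and 1.55 and young folds of 2.00, 1.75, 2.36 and 1.53, all labelled 3' UTR. Of its 3 aged peaks, 2 overlapped a young peak. RNF31, the catalytic subunit of the linear-chain ligase, had 1.52 in the aged list with an adjusted p of 0.121, and 1.61 in the young list. RNF31 and UBE2L3 were the only genes of the 102 with an aged adjusted p above 0.05, and no young peak of these genes exceeded it.

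TRIM genes were aged-only in 3 of 11 cases (27.3%, 9.75 to 56.6), and young-only and shared in 4 each (36.4%, 15.2 to 64.6). These intervals include the shares of all genes, 26.9% aged-only, 41.3% young-only and 31.8% shared. TRIM25, a ligase that activates the RNA sensor RIG-I, had 2 peaks in each list, with folds of 2.75 and 2.33 in the aged list and 3.67 and 3.12 in the young list, and each aged peak lay inside a young one. RNF135, which acts on the same sensor, had 1.56 in the aged and 2.11 in the young list. The nuclear receptor coregulator TRIM24 (2.33 aged, 3.20 young) and TRIM68 (1.82 aged, 1.82 young) had overlapping peaks, whereas those of TRIM44 (2.12 aged, 2.33 young) lay 3991 bases apart. The cytosolic antibody receptor TRIM21 (2.00), TRIM23 (1.85) and TRIM52 (1.57) were aged-only. TRIM35 (2.80), TRIM14 (2.00), TRIM34 (1.75) and TRIM16 (1.71) were young-only.

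Among cullin ligase genes, FBXW7 had the highest aged fold of the 102 genes, 4.20 at rank 48 of 3656 aged peaks. FBXW7 is the F-box protein that brings cyclin E, MYC and NOTCH to CUL1. It had 3 aged peaks, with folds of 4.20, 3.22 and 2.20, and a single young peak of 1.62, between 5529643 and 5530891 of chromosome 17. The young peak shared 151 bases with the strongest aged peak and 1 base with the next. FBXO genes were aged-only in 5 of 11 cases (45.5%, 21.3 to 72.0), an interval that includes the 26.9% of all genes. These aged-only genes were FBXO15 (2.48), FBXO25 (2.33), FBXO42 (2.25), FBXO17 (1.95) and FBXO8 (1.88). Young-only were FBXO10 (2.09 and 1.75), FBXO33 (1.86), FBXO31 (1.81), which targets cyclin D1, and FBXO38 (1.67). FBXO22 had identical boundaries at both ages (2.16 aged, 1.78 young), and FBXO32, the muscle atrophy gene known as atrogin-1, had overlapping peaks (2.18 aged, 2.42 young). Of FBXL genes, FBXL15 was shared with identical boundaries (1.96 aged, 1.63 young), FBXL12 (1.50) was aged-only and FBXL2 (1.50) young-only.

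Every peak of the 4 CUL scaffold genes had a fold below the median of its list. CUL1 (1.72) was aged-only, CUL3 (1.59) and CUL5 (1.50) were young-only, and CUL9 was shared (1.54 aged, 1.86 young). KLHL9, a CUL3 adaptor that acts on Aurora B in mitosis, had an aged-only peak of 4.00, at rank 55 of 3656. KLHL32 (2.25) and KLHL33 (1.75) were also aged-only, and KLHL22 (1.68), another mitotic adaptor of CUL3, was young-only. KLHL12 (1.82 aged, 3.43 young), which acts on dishevelled, KLHL36 (2.25 aged, 2.17 young) and KLHL5 (2.00 aged, 2.29 young) were shared. ASB3 (2.09 and 1.83) and ASB8 (1.64) were aged-only and ASB6 (1.92) young-only. UBE3A, the founding member of the HECT ligases, had 2.26 in the aged and 2.07 and 2.04 in the young list. The chain-elongating U-box gene UBE4A had 1.72 in the aged and 1.87 and 1.64 in the young list, while UBE4B had 3 aged peaks (2.04, 1.66 and 1.63) and none in the young list.

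Over all 102 genes, folds lay near the middle of their lists. The median fold was 1.94 for 83 aged peaks and 2.08 for 88 young peaks, at percentiles 54.6 and 51.5 of the folds of the aged and the young list. Several peaks were found in 11 of 68 aged genes (16.2%, 9.28 to 26.7) and 13 of 72 young genes (18.1%, 10.9 to 28.5), against 15.1% of all aged and 12.1% of all young genes. Introns were crossed by 16 of 83 aged peaks (19.3%) and 10 of 88 young peaks (11.4%), against 22.5% and 16.9% of all aged and young peaks.

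An aged and a young peak of the same gene shared 1 base or more, with strand matched, in 32 of the 38 shared genes (84.2%, 69.6 to 92.6), against 84.1% of 1671 shared genes in all. In all, 35 of 83 aged peaks (42.2%, 32.1 to 52.9) overlapped a young peak, and 34 of 88 young peaks (38.6%, 29.1 to 49.1) an aged one. Of all peaks, 41.0% of aged and 34.3% of young ones did so. Identical boundaries were found in 5 of the 35 overlapping pairs, in FBXL15, FBXO22, RNF6, RNF121 and USP4. The aged peak was the wider in 18 pairs and the young peak in 11, and 6 had equal width, so that the aged peak was wider in 51.4% of pairs, against 49.3% of 1530 pairs over all genes. The 6 shared genes without overlap were RNF220, TRIM44, USP14, USP24, USP34 and USP40, with 297 to 3991 bases between the nearest aged and young peaks. RNF220 had aged peaks labelled 5' UTR (1.86) and 3' UTR (2.12) and a young peak between them labelled stop codon (2.80).

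**Figure D3:**
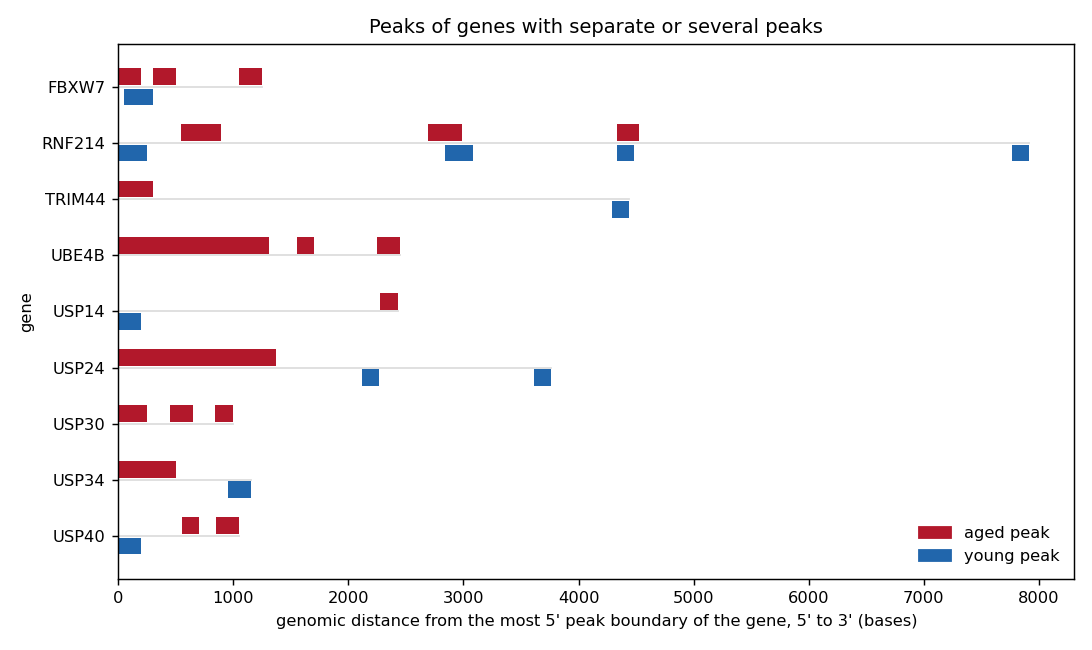
Positions of aged peaks (upper bars) and young peaks (lower bars) in 9 genes that had peaks in both lists without overlap or at least 3 peaks in a list, over less than 10000 bases. The horizontal axis is genomic distance in bases from the most 5' boundary, 5' to 3', and long bars such as the first of UBE4B and USP24 cross introns. FBXW7 and RNF214 have overlapping aged and young peaks, TRIM44, USP14, USP24, USP34 and USP40 separate ones, and UBE4B and USP30 aged peaks alone.

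Most peaks of these genes carried a 3' UTR or stop codon label in the deposited annotation. The 3' UTR label was given to 59 of 83 aged peaks (71.1%, 60.6 to 79.7) and 51 of 88 young peaks (58.0%, 47.5 to 67.7), against 66.4% of all aged and 47.3% of all young peaks, the young value lying just below the interval. The stop codon label was given to 15 aged peaks (18.1%, 11.3 to 27.7) and 35 young peaks (39.8%, 30.2 to 50.2), against 15.3% of all aged and 41.3% of all young peaks. Exon labels numbered 8 of 83 aged peaks (9.64%, 4.97 to 17.9), of which 5 lay in the USP genes USP1, USP9X, USP24, USP34 and USP36, and 1 of 88 young peaks (1.14%, 0.201 to 6.16), in KLHL5. The corresponding shares of all peaks were 15.3% in the aged list and 9.30% in the young list, and the young value lay above the interval of the ubiquitin genes.

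The aged stop codon label depended on the strand. On the plus strand 15 of 53 aged peaks (28.3%) and 21 of 53 young peaks (39.6%) had it. On the minus strand 0 of 30 aged peaks had it, where 3 counts would be 10.0%, against 14 of 35 young peaks (40.0%). Over all peaks, 27.5% of aged and 43.1% of young plus-strand peaks were so labelled, and 2.58% of aged and 39.0% of young minus-strand peaks. Among the overlapping minus-strand pairs, RNF31, RNF135 and 1 of the 2 pairs of TRIM25 had a 3' UTR label in the aged list and a stop codon label in the young list. Of the 10 overlapping pairs with a stop codon label at both ages, all lay on the plus strand. Where 1 gene had peaks of both labels in a list, the one labelled stop codon was downstream of the one labelled 3' UTR in 2 of 2 aged pairs, in RNF121 and USP4, and in 7 of 9 young pairs. Over all genes this order was found in 80 of 96 aged and 209 of 223 young pairs. The labels are therefore given as deposited and not as positions within the transcript. The ubiquitin genes with the other order were UBE2D3 and USP36 in the young list.

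**Figure D4:**
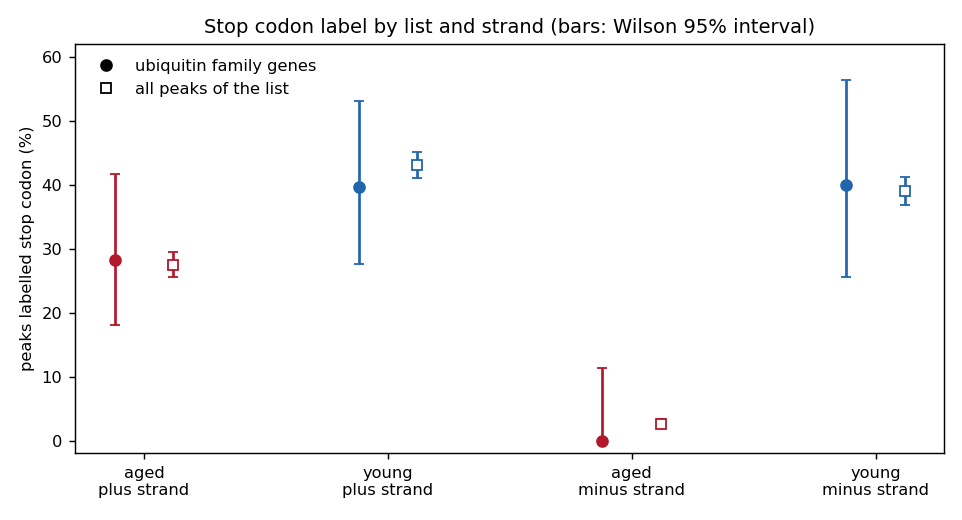
Share of peaks labelled stop codon (vertical axis, percent) on the plus and minus strands in the aged and young lists, for ubiquitin genes (filled circles) and all peaks (open squares), with Wilson 95% intervals. The aged minus-strand share is 0 of 30 peaks for ubiquitin genes and 2.58% for all peaks, and the other shares lie between 27.5% and 43.1%.

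Lists of known roles within the 102 genes were split between the ages. Of 22 genes of DNA damage signalling, 9 had a peak, 4 of them aged-only (UBE2A, UBE2B, UBE2V1 and USP1), 1 young-only (USP28) and 4 shared (RNF169, UBE2D3, USP47 and USP48). Cell division had 8 of 25 genes with a peak, 2 aged-only (CUL1 and KLHL9), 5 young-only (CUL3, FBXL2, FBXO31, KLHL22 and USP3) and 1 shared (FBXW7). WNT and TGF-beta signalling had 9 of 19, of which 1 was aged-only (RNF43), 2 young-only (CUL3 and USP15) and 6 shared, led by USP34, USP9X and FBXW7. Endoplasmic reticulum quality control had 10 of 23 (3 aged-only, 3 young-only, 4 shared) and innate immunity 11 of 26 (4 aged-only, 4 young-only, 3 shared). Of 12 genes of mitochondrial quality control, 4 had a peak, 3 aged-only (RNF185, UBE2L3 and USP30) and 1 young-only (USP15). Histone ubiquitination had UBE2A and UBE2B aged-only and RNF20 and USP3 young-only among 17 genes. Of 20 genes known from germ cells and oocytes in mouse or other mammals, UBE2B was aged-only and FBXW7, UBE3A, USP14 and USP9X were shared. Of 6 clock genes, UBE3A and USP14 were shared. Some genes stand in several of these lists, which are too short for a comparison with the shares of all genes, and none was tested.

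Genes of the ubiquitin system outside the naming rule were counted in the same way. As background, the aged-only class held 26.9% of all 5261 genes, the young-only class 41.3% and the shared class 31.8%. The lists hold at most 22 genes with a peak and were not tested against these shares. HECT ligase genes, which pass ubiquitin through a catalytic cysteine, had 6 aged-only, 3 young-only and 1 shared among 10 with a peak. AREL1 (2.00 aged, 2.26 young) was the shared one, SMURF1 (2.00) and HERC2 (1.87) were aged-only, and HERC6 (2.00) was young-only. RING and U-box ligases had 7 aged-only, 6 young-only and 9 shared genes among 22 with a peak, including shared TOPORS (3.23 aged, 1.67 young) and young-only ARIH2 (3.08). Cullin partners and adaptors had 8 aged-only, 8 young-only and 6 shared genes among 22, with SOCS4 (2.60) aged-only and DCAF8 (3.33) young-only. Other deubiquitinases and relatives of them had 3 aged-only, 5 young-only and 3 shared genes among 11, with PSMD14 also counted among the proteasome genes. Of these, OTULIN (4.87), which cleaves the linear chains built by RNF31, was aged-only, MINDY3 (2.86) young-only and ATXN3 shared (3.67 aged, 1.75 young). Among activating enzymes of ubiquitin and related proteins, UBA6 (1.57 aged, 2.70 young) and UBA3 (1.54 aged, 2.19 young) were shared and NAE1 (1.60) was aged-only.

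Proteasome genes with a peak numbered 19, of which 4 had an aged peak alone, 14 a young peak alone and 1, PSMD6, peaks of both ages. The young-only share of all genes was 41.3%, and no test was made of the difference. PSME1 (3.67), PSMD9 (3.00), PSMD1 (2.50) and PSMA3 (2.14) were young-only, and the other 10 young-only genes had folds of 1.57 to 1.90. PSME4 (3.17), an activator of the proteasome, was aged-only. The deposited pathway of ubiquitin mediated proteolysis held 58 genes with a peak, of which 22 were aged-only, 13 young-only and 23 shared. Of its 23 genes among the 102, 11 had aged peaks alone, 4 young peaks alone and 8 both. The remaining 35 split into 11 with aged peaks alone, 9 with young peaks alone and 15 with both. Across all 5261 genes, aged peaks alone were found in 26.9%, young peaks alone in 41.3% and peaks of both ages in 31.8%. Whether the pathway differs from these shares was not tested. The pathway includes UBE2 genes, so its counts are not independent of theirs.

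**Figure D5:**
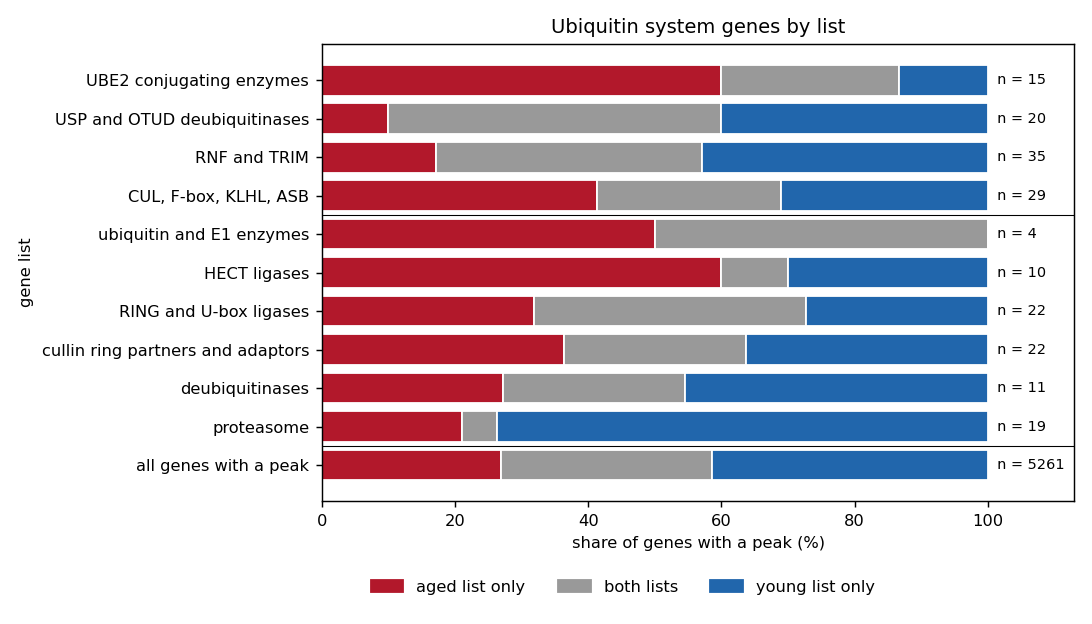
Share of genes with a peak (horizontal axis, percent) in the aged list only, both lists and the young list only, for 4 groups of families chosen by name (upper rows), related lists outside the naming rule (middle rows) and all genes with a peak (lowest row). The number of genes stands at the right of each bar. Of the bars drawn, UBE2 genes (9 of 15) and HECT ligases (6 of 10) have the widest aged-only parts, and proteasome genes (14 of 19) the widest young-only part.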

How the data were processed

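Peak lists of ovarian m6A immunoprecipitates, 1 for each age, were analysed. Groups follow the labelled age and antibody. Per the labels' protocols, Trizol-extracted total RNA was made into stranded libraries and sequenced on an Illumina NovaSeq instrument. The submitters' processing notes name ChIPseeker and DESeq2 without a role, but no source used here gives the aligner, peak caller or build. Each peak has a fold (a ratio of immunoprecipitate over input) and raw and adjusted p-values from the authors, per the file headers. The deposited log10 p columns were treated as a score. No deposited fold was below 1.50.

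Lines with the same position and strand counted as 1 peak, and starts were shifted by 1 base. Overlap used the span from start to end, introns included. Chromosome numbers and gene counts came from a gene table of assembly ARS-UI_Ramb_v3.0, matched by gene identifier for 99.5% of peaks. Its coordinates were not used. Genome and transcript sequences were not used here. The members and lists were chosen with earlier results of these data known. Named genes were all members of families with at most 12 genes with a peak, in larger families up to 8 per class by fold or number of peaks, genes with at least 3 peaks in a list, and up to 5 genes per list by fold. RNF14, RNF31, RNF112, RNF135, UBE2Q2, USP31 and PSMD6 were named after their values were seen. Values of some single genes are not reported here. Overlap and class code was tested on simulated peaks. Alternatives were stricter folds, a stricter adjusted p (0.01), lists cut to equal length, 1 strand, fewer labels, peaks without introns, LOC genes, no UBE2 genes and other overlap or merging rules. Tables were handled with pandas 2.3.3 and numpy 2.4.6 in Python 3.11.15, intervals came from scipy 1.17.1, and plots from matplotlib 3.10.9.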

Additional observations from a re-analysis of the deposited data

How the results depend on the processing

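Of 57 recomputed group values, 51 stayed within the interval or spread of the value as reported. Some could not move, such as the aged-only and young-only shares when shared genes had to have overlapping peaks. For median folds the spread was the standard deviation of single peaks, a wide allowance. The count is therefore no measure of how stable the results are. With exon and UTR labels only, aged-only genes made up 41.8% and shared genes 27.8%, against 41.3% and 26.3% of all genes under that setting, which leaves out every peak labelled stop codon. With folds of at least 2.00, young-only genes made up 43.1%, against 54.7% of all genes. On the plus strand alone the aged stop codon share was 28.3% and the aged 3' UTR share 58.5%, and on the minus strand the aged stop codon share was 0.00%. With folds of at least 2.00, 44 genes had no peak left and 13 changed class. A turn from aged-only to young-only or back could not occur, because no alternative gives one of these genes a further peak. No paired analysis was possible because each age has a single immunoprecipitate and the ages share no replicate number. UBE2 had 10 aged-only and 2 young-only genes of 15 with equal list lengths, 6 and 4 of 11 with peaks that cross no intron, and 4 and 2 of 9 on the plus strand. With LOC genes matched by deposited symbol, 105 genes entered. Sequencing depth was not given, so a gene missing from a list may lie below what that library could detect.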

Other observations

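Some neighbouring peaks of 1 gene carried the same deposited log10 p. Among aged peaks of the ubiquitin genes this held for FBXW7 (1 pair), UBE4B (1 pair), USP4, USP9X, USP40 and USP30, whose 3 peaks all had a log10 p of -5.61 with 198 bases between neighbours. In the young list it held for OTUD5. Over all genes with several peaks, 40.4% of aged and 20.6% of young genes had such a pair, and of neighbours within 1000 bases 55.0% of aged and 32.3% of young pairs. Merging such neighbours, an alternative chosen after seeing the data, left several peaks in 7 of 68 aged genes (10.3%) and 12 of 72 young genes (16.7%).

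The closest neighbours were UBE2Q2 and FBXO22 on chromosome 18, whose peaks lay 27.8 kb apart, the first aged-only and the second with identical peaks at both ages.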
